A study of Mus musculus with 12 samples.

Results

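The transcriptome of FoxO-deficient myeloid progenitors was compared with that of wild-type myeloid progenitors on 6 of the 12 Affymetrix mouse arrays of the series, those titled wild-type myeloid progenitors 7, 8 and 9 and FoxO-deficient myeloid progenitors 10, 11 and 12. The study as a whole asked how loss of FoxO1, FoxO3 and FoxO4 alters the expression of genes that handle reactive oxygen species (ROS) in stem cells and myeloid progenitors of mouse bone marrow, and its other 6 arrays hold LSK cells, the Sca-1- and Kit-positive fraction that contains the stem cells. The wild-type group was Mx-Cre-; FoxO1/O3/O4 LoxP/LoxP and the deficient group Mx-Cre+; FoxO1/O3/O4 LoxP/LoxP, so both carried the floxed alleles of all 3 genes and only the deficient group carried the transgene. Mx-Cre is driven by the interferon-responsive Mx1 promoter and recombines in many cell types of the marrow and beyond. What is called a FoxO effect here includes any effect of the transgene and of loss of FoxO in other cells of the mice. The cells were sorted from pooled mice, and the labels give neither the age of the mice, nor how Cre was induced, nor the gate. Amplification and labelling were done in triplicate, and nothing says whether a group's 3 arrays stem from different pools, so p-values measure the spread between arrays, which may be technical. The labels also do not say whether both groups were sorted and processed side by side, so genotype and preparation cannot be told apart.

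FoxO proteins are forkhead transcription factors at the end of the insulin and growth factor pathway. Akt phosphorylates them and keeps them out of the nucleus, and when growth factor signalling is low they enter the nucleus and switch on genes of cell cycle arrest, cell death, metabolism and defence against oxidants. In the blood system they are known for keeping stem cells quiescent and low in ROS, while myeloid progenitors are the cycling cells that divide into the granulocyte-monocyte branch and the branch of red cells and megakaryocytes.

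The mean deposited intensity per array lay between 125.1 and 190.2 and the median between 8.1 and 12.8. The 3′ to 5′ ratio of the control signals, a measure of RNA integrity, was higher on every wild-type than on every deficient array for Gapdh (2.07 to 2.3 against 1.77 to 2.03). For Actb the groups overlapped, at 3.18 to 3.36 on wild-type and 3.02 to 3.26 on deficient arrays, and the part of RNA integrity in the results was not tested. Log2 values correlated across probe sets at r of 0.921 to 0.929 within the groups and 0.915 to 0.924 between them, over genes, which are not independent replicates. Of 45101 probe sets, 22133 passed the filter on low values, and 11846 genes were tested, each by its brightest kept probe set. Intensities below are normalized over the 6 arrays and given in the order 7, 8 and 9 for wild-type cells and 10, 11 and 12 for FoxO-deficient cells. A log2 change is FoxO-deficient minus wild-type, on the scale of log2(intensity + 0.6), with its standard error and 3 arrays per group. The adjusted p is limma's, corrected over all genes tested, and a gene is said to have risen, fallen or been called where it is under 0.05. Where the dimmer group did not exceed the background limit on any of its 3 arrays, which was between 5.855 and 11.71, a lower bound of the fold is given.

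The marker genes of myeloid progenitors were measured as the label requires. Of 13 such genes with a probe set, 12 lay above the background limit on all 6 arrays, among them Kit, Cd34, Mpo, Elane, Prtn3, Ctsg, Cebpa, Gata1 and Epor, and Itga2b lay above it on 5. Markers of some other cells a gate could hold were measured too. Those above the limit on all 6 arrays were 4 of 6 late neutrophil markers, 4 of 5 megakaryocyte markers, 4 of 5 markers of LSK and stem cells and 3 of 6 monocyte and macrophage markers, whose summed levels by group are given beside the results they touch. Of T and NK cell markers 0 of 4 were above the limit on all 6 arrays, of late red cell markers 0 of 3, and of stromal and endothelial markers 0 of 6. The B cell marker Ms4a1 did not exceed the limit on any of the 6 arrays, while the plasma cell gene Sdc1 and the B cell receptor gene Cd79b were above it on all 6. The gene of Sca-1, Ly6a, has no probe set of its own.

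Of the 3 floxed genes, Foxo4 had the clear difference, 375, 331 and 356 on the wild-type and 58.5, 58.7 and 60.9 on the deficient arrays (log2 change -2.56 ± 0.09, adjusted p = 0.000450). All 3 deficient arrays lay at about the same low level, far below every wild-type array, and that level was still above the background limit. This is the brighter of its probe sets. The other did not exceed the limit on any array, at 0.859, 0.727 and 5.03 in wild-type and 2.29, 0.298 and 1.96 in deficient cells (adjusted p = 0.930 over all probe sets). In RNA from many cells, fewer cells with a transcript and less of the transcript per cell cannot be told apart, here or in any result that follows. For Foxo1, the brightest probe set gave 37.3, 22.4 and 12.6 in wild-type cells and 8.96, 14.3 and 11.3 in deficient cells, and the groups overlapped (adjusted p = 0.232). A second Foxo1 probe set read 13.5, 19.4 and 32.1 and 9.33, 4.53 and 9.15, with the deficient arrays all lower but without passing the test over all probe sets (adjusted p = 0.251). Both Foxo1 probe sets were dim, and of its other probe sets 1 was dimmer still and 1 had the opposite sign. Foxo3 read 2000.4, 1926 and 1921 in wild-type cells and 2356, 2511 and 2687 in deficient cells (log2 change 0.37 ± 0.09, adjusted p = 0.0675). Its second bright probe set read 1647, 1510.4 and 1499.9 and 2555, 2490.1 and 2425 (adjusted p = 0.138 over all probe sets). On both, every deficient array was higher than every wild-type array, although neither difference passed. It is not stated in the labels which exons lay between the LoxP sites, so a probe set outside that stretch does not report the deletion, and Foxo4 is the gene whose level goes with the labels.

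**Figure D1:**
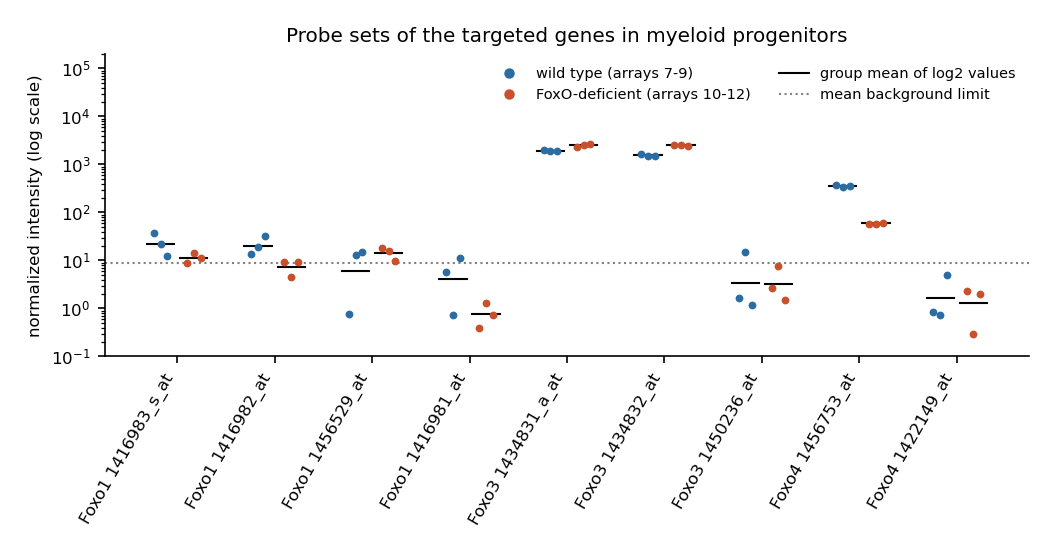
Normalized intensity (log axis) of the 9 probe sets of Foxo1, Foxo3 and Foxo4 on each of the 6 myeloid progenitor arrays, with a bar for the mean of the log2 values of each group and a dotted line at the mean background limit. The brighter Foxo4 probe set reads between 331 and 375 on wild-type arrays and between 58.5 and 60.9 on FoxO-deficient arrays. The other Foxo4 probe set is below the background limit throughout. Both bright Foxo3 probe sets are somewhat higher on the deficient arrays, and the probe sets of Foxo1 are dim in both groups.

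Of the 11846 genes tested, 983 were called (8.3%), 597 of them higher (5.04%) and 386 lower (3.26%). The groups of 3 arrays did not overlap for 4029 genes (34%), of which 2425 were higher (20.5% of all) and 1604 lower (13.5%), and the median log2 change of all genes was 0.05. The falls were the larger changes. Of the genes called higher, 167 changed by 2-fold or more, and of those called lower 179. With arrays scaled to a common median in place of quantile normalization, 650 were called higher and 254 lower, with a median log2 change of 0.11. Falls outnumbered rises without a filter on low values (128 against 103), in a fit over all 12 arrays (149 against 104) and without any 1 deficient array (151 to 172 against 97 to 110). Leaving out any 1 array brought the calls to between 250 and 442. The dimmer group was not above background for 47 of the called genes, and 130 genes passed the filter through 1 group only. Of 525 called genes with other kept probe sets, 368 had the same sign on all of them. In a test of all 45037 probe sets other than controls, without a filter, 65 were called higher and 165 lower.

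**Figure D2:**
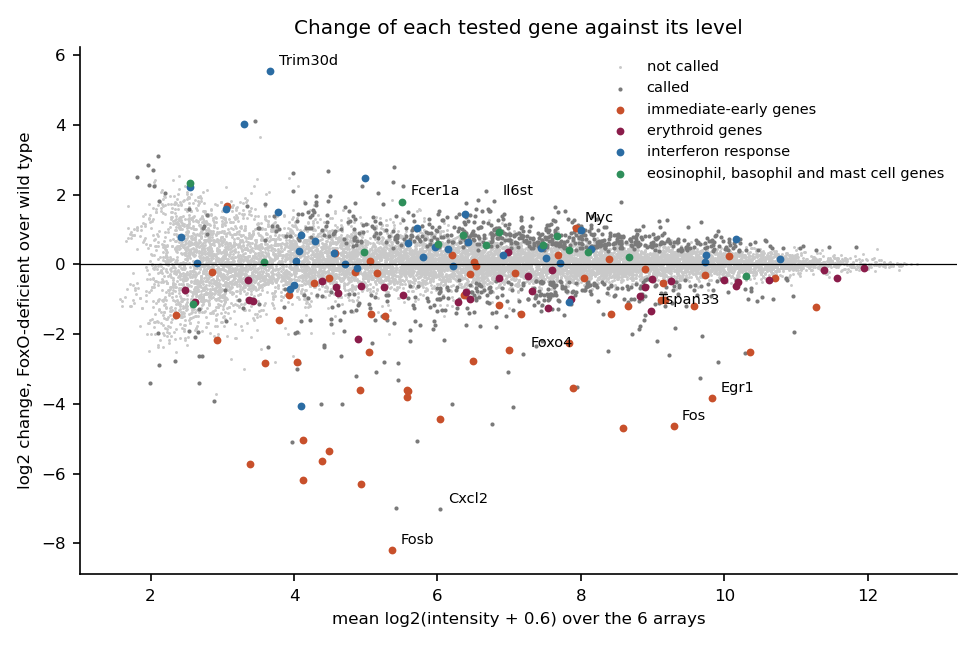
Log2 change between FoxO-deficient and wild-type myeloid progenitors against the mean log2(intensity + 0.6) over the 6 arrays, 1 point for each of the 11846 genes tested, with 4 gene lists in colour. Immediate-early genes, such as Fosb, Fos and Egr1, lie far below 0 at low and at high levels, erythroid genes lie below 0 by smaller steps, and Trim30d of the interferon list is the highest point.

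The 12 largest falls were 8 immediate-early genes, 3 chemokine genes and Socs3. Fosb, a partner of the Jun proteins, fell at least 79.6-fold from 728, 706 and 685 to a level not above background (adjusted p = 0.00570), Ccl3 at least 54.3-fold (adjusted p = 0.00119) and Atf3 at least 30.6-fold (adjusted p = 0.00768). Nr4a3, Nr4a1, Egr3, Ptgs2 and Ccl4 also ended below the background limit on all deficient arrays. Cxcl2, Socs3 and Trib1 ended above it on 1 of 3 arrays, and Jun ended clearly above it on all 3. Atf3, Cxcl2, Socs3 and Jun were called with any 1 array left out. Fosb, Ccl3, Nr4a1, Nr4a3, Egr3 and Ptgs2 were called without any 1 deficient array, and without any 1 wild-type array they no longer passed the filter on low values and were not tested. Ccl4 and Trib1 kept their call in 2 of these 6 fits.

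Of the 12 largest rises, 6 started from levels that were not above the background limit on any wild-type array. Trim30d, a paralog of the interferon-inducible Trim30a, rose at least 9.12-fold, to 92.5, 84.7 and 82.9 (adjusted p = 0.00623). Igkv8-30, an immunoglobulin light chain segment, rose at least 4.78-fold to 33.6, 62.1 and 43.98, and the desmosomal cadherin gene Dsc2 at least 5.88-fold to 51.5, 69.2 and 48.2. The second kept probe set of Dsc2 had the opposite sign, and light chain segments share sequence, so both are uncertain. A probe set named for the microRNA gene Mir1931 rose from 13.9, 16.1 and 16.3 to 112, 119 and 100.3 (log2 change 2.79 ± 0.11, adjusted p = 0.000656). It measures the transcript at that locus and not the mature microRNA. Mir1931 was called with any 1 array left out, and Trim30d, Igkv8-30 and Dsc2 were called without any 1 wild-type array. Without any 1 deficient array, Dsc2 was not called, and Trim30d and Igkv8-30 did not pass the filter. On all 6 arrays these 2 genes passed it through the deficient group only and so had to differ.

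Among the other rises, Flt1, a receptor for vascular endothelial growth factor, rose from 23.2, 12.2 and 19.9 to 90.2, 82.4 and 111 (log2 change 2.36 ± 0.27, adjusted p = 0.0126). Tlr4, the receptor for lipopolysaccharide, rose from 9.86, 29.5 and 28.8 to 103, 123 and 75.99 (log2 change 2.24 ± 0.47, adjusted p = 0.0485). For both, the lowest deficient array was more than the highest wild-type array, and wild-type array 7 was the low one for Tlr4. Irgm2, an interferon-inducible GTPase, rose from 18.4, 10.1 and 11.3 to 82.2, 76.6 and 64.4 (log2 change 2.47 ± 0.25, adjusted p = 0.00910). The zinc finger gene Zfp563 rose from 8.13, 11.3 and 27.1 to 66.3, 83.6 and 54.1 (log2 change 2.25 ± 0.46, adjusted p = 0.0457), with wild-type array 9 the highest of its group. Flt1 and Irgm2 were called with any 1 array left out, Tlr4 and Zfp563 in 1 of the 6 such fits. Flt1 is also a gene of endothelial cells. The summed level of 6 stromal and endothelial markers was 29.06 to 32.34 on wild-type and 38.79 to 56.82 on deficient arrays, with Cdh5, Cldn5, Col1a1 and Cxcl12 near or below the limit throughout and Sparc the one that was higher, and their part in the rise of Flt1 was not tested. Ticam1, the adaptor of Tlr3 and Tlr4, rose at least 1.10-fold (adjusted p = 0.00489), the mast cell chymase gene Cma1 at least 1.38-fold (adjusted p = 0.0136) and Tpd52l1 at least 1.32-fold (adjusted p = 0.0114), all to levels just above the limit. These 3 genes passed the filter through the deficient group only, were called without any 1 wild-type array and were not tested without any 1 deficient array. The unnamed transcript 4833407H14Rik rose to 39.9, 34.4 and 42.4, and no fold is given since 1 wild-type array exceeded the limit.

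Immediate-early genes fell more often than they rose in FoxO-deficient myeloid progenitors. They are switched on within minutes by growth factors, cytokines or stress, without new protein synthesis, and encode transcription factors and feedback regulators. Of 60 tested, 36 fell, 23 were not called and 1 rose, against 3.26% and 5.04% of all genes, and the median log2 change was -1.32. The groups did not overlap for 41 that were lower and 2 that were higher. Of the 36, 6 passed the filter on low values through the wild-type group only and so had to differ, Fosb, Nr4a1, Nr4a3, Egr3, Ptgs2 and Plk2. In LSK cells the same 60 genes had a median log2 change of 0.07, and for 35 of them the FoxO effect differed between myeloid progenitors and LSK cells (limma, adjusted p under 0.05, against 3.51% of 13445 genes). Without array 7, 8, 9, 10, 11 or 12, 19, 20, 21, 25, 28 and 25 were called lower, and 18 were called in all 6 of these fits.

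The AP-1 subunits, which pair as Fos and Jun proteins on the AP-1 site, fell in 7 of 11 members tested and rose in 0. The share called was 63.6%, against 8.3% of all genes, and the median log2 change was -2.52. Fos fell from 3424, 2838 and 3188 to 102, 119 and 159 (log2 change -4.65 ± 0.19, adjusted p = 0.000656). Jun fell from 2082, 1778 and 1991 to 68.8, 59.1 and 103 (log2 change -4.69 ± 0.22, adjusted p = 0.00107). Jund, the Jun gene usually expressed at a steady level, fell from 3080.5, 3292 and 3102 to 538, 570.4 and 539 (log2 change -2.52 ± 0.08, adjusted p = 0.000414). In each case the 3 deficient arrays were far below all wild-type arrays. Among fits without 1 array, 4 to 7 of the AP-1 genes were called, with Fos, Jun, Jund and Atf3 in every fit. Junb was dim and fell from 28.2, 18.2 and 25.04 to 7.94, 5.33 and 9.15 (log2 change -1.60 ± 0.25, adjusted p = 0.0257). The small Maf gene Mafk fell from 206, 274 and 227 to 105, 64.2 and 99.3 (log2 change -1.42 ± 0.23, adjusted p = 0.0265). Fosl2 read 466, 537 and 495 in wild-type and 399, 524 and 440.1 in FoxO-deficient cells with overlap of the groups and was not called (adjusted p = 0.554).

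All 3 measured Egr genes and all 3 Nr4a genes fell. Egr1, a zinc finger factor induced by nearly every growth stimulus, fell from 3499, 3379.5 and 3395 to 237, 247 and 236 (log2 change -3.83 ± 0.08, adjusted p = 0.000218). Egr2 fell from 177, 174 and 183 to 15.9, 13.1 and 8.59 (log2 change -3.81 ± 0.23, adjusted p = 0.00211), and Egr3 at least 16.8-fold from 137, 139.6 and 171. Nr4a1 and Nr4a3, orphan nuclear receptors, read 66.2, 80.2 and 79.3 and 144, 153 and 148 in wild-type cells and fell at least 8.51-fold and at least 16.8-fold, to levels not above background. Nr4a2 fell from 333, 329 and 242 to 52.3, 59.9 and 51.5 (log2 change -2.44 ± 0.16, adjusted p = 0.00292). The spread within groups was small next to these differences, and no deficient array reached a wild-type array. Between 3 and 6 were called without 1 array, Egr1, Egr2 and Nr4a2 in every fit. Of the Egr corepressors 0 of 2 were called by limma, and of the serum response factor axis 0 of 6, with 0 and 1 at an unadjusted p under 0.05. Srf itself read 135, 158 and 148 in wild-type and 131, 118 and 123 in FoxO-deficient cells, lower on all deficient arrays without passing (adjusted p = 0.202).

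**Figure D3:**
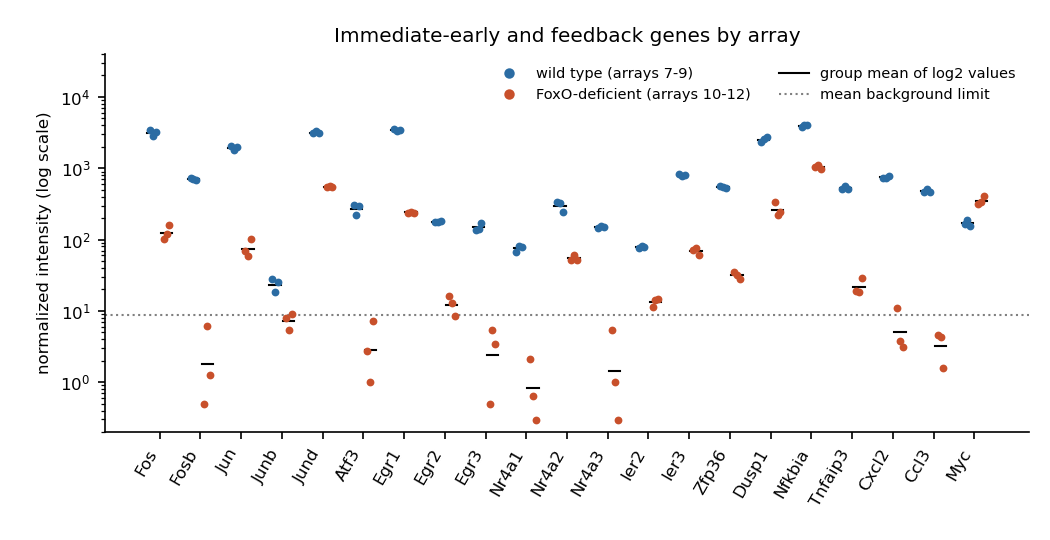
Normalized intensity (log axis) of 21 immediate-early and feedback genes on each of the 6 arrays, with wild-type arrays 7 to 9 and FoxO-deficient arrays 10 to 12 in different colours. Myc has its deficient arrays above its wild-type arrays, and for the other 20 genes every wild-type point lies above every deficient point.

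Among 35 other early response genes, 23 fell. Ier3, a stress-inducible survival gene, fell from 841, 777 and 811 to 70.9, 76.4 and 61.6 (log2 change -3.53 ± 0.11, adjusted p = 0.000395). Ier2 fell from 75.7, 80.3 and 77.6 to 11.2, 14.2 and 14.6 (log2 change -2.50 ± 0.13, adjusted p = 0.00119) and Ier5 from 465, 509 and 521 to 93.6, 108 and 111 (log2 change -2.25 ± 0.11, adjusted p = 0.00107). The G protein regulators Rgs1 and Rgs2 both fell, Rgs1 from 303, 299 and 309.9 to 17.05, 6.37 and 21.9 (log2 change -4.44 ± 0.45, adjusted p = 0.00935). Rgs2 fell from 587, 648 and 582 to 279, 222 and 305 (log2 change -1.18 ± 0.14, adjusted p = 0.0151). Bhlhe40, a helix-loop-helix repressor, fell from 194, 118 and 194 to 12.4, 10.3 and 17.6 (log2 change -3.59 ± 0.28, adjusted p = 0.00524), and Ptgs2, the cyclooxygenase that inflammation induces, at least 16.3-fold from 120.4, 148 and 167. The groups did not overlap for any of these 7 genes, with deficient array 11 the lowest for Rgs1 and array 8 the lowest wild-type array for Bhlhe40.

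Kdm6b, a demethylase of histone H3, fell from 4012, 3872 and 3557 to 1687, 1659 and 1523 (log2 change -1.23 ± 0.09, adjusted p = 0.00489). Cd69, an activation antigen, fell from 1033, 1191 and 1248 to 491, 473 and 539 (log2 change -1.20 ± 0.11, adjusted p = 0.00802). Sgk1, a kinase of the PI3K pathway related to Akt, fell from 789, 823 and 754 to 402, 404 and 363 (log2 change -1.02 ± 0.09, adjusted p = 0.00760). These deficient levels stayed far above background, at less than the wild-type level on every array. Mcl1, which encodes a survival protein of the Bcl2 family, had the smallest fall of the 23 (log2 change -0.38 ± 0.08, adjusted p = 0.0487) and lost its call without any 1 array. Myc was the gene that rose, from 165, 190.0 and 157 to 311, 337 and 411 (log2 change 1.04 ± 0.14, adjusted p = 0.0199), each deficient array being above each wild-type array. Without array 7, 9, 11 or 12 the rise of Myc was not called. Gadd45b was not called and its groups overlapped, at 409, 275 and 246 in wild-type and 189, 245 and 263 in FoxO-deficient cells, while Gadd45a fell from 579.8, 606 and 512 to 199.9, 210.0 and 217 (log2 change -1.43 ± 0.10, adjusted p = 0.00374).

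Of 11 dual specificity phosphatases, which remove phosphate from ERK, JNK and p38, 7 fell and 0 rose (63.6% called, against 8.3% of all genes). Of the 7, 1 passed the filter on low values through the wild-type group only and so had to differ. Dusp1 fell from 2318, 2553 and 2708 to 340.1, 219 and 239.7 (log2 change -3.27 ± 0.19, adjusted p = 0.00198). Dusp5 fell from 857, 790.2 and 845 to 60.9, 84.5 and 74.1 (log2 change -3.51 ± 0.14, adjusted p = 0.000656) and Dusp6 from 573, 613 and 583 to 276, 250.3 and 309 (log2 change -1.08 ± 0.11, adjusted p = 0.00919). Dusp1 and Dusp5 act in the nucleus and Dusp6 in the cytoplasm, and no deficient array reached a wild-type array for any of them. Dusp16, Dusp2, Dusp10 and Dusp8 also fell, with log2 changes of -1.38 ± 0.14, -1.70 ± 0.32 and -0.97 ± 0.19, and Dusp8 at least 3.23-fold. Of 3 feedback inhibitors of receptor kinases, 0 were called by limma and 1 had an unadjusted p under 0.05. Leaving out 1 array left between 4 and 6 of the 7 phosphatases called, with Dusp1, Dusp5, Dusp6 and Dusp16 in each fit.

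Among 10 genes that shorten mRNA life or hold back proliferation, 5 fell and 0 rose. Zfp36, which binds AU-rich elements and triggers decay of cytokine mRNAs, fell from 558, 553 and 521 to 34.8, 31.9 and 28.3 (log2 change -4.08 ± 0.11, adjusted p = 0.000307). Its relative Zfp36l1 fell from 1071, 1014 and 1152 to 514, 429 and 461 (log2 change -1.21 ± 0.11, adjusted p = 0.00760), and Zfp36l2 read 3312, 3329 and 3473 in wild-type and 3056, 2855 and 2946 in FoxO-deficient cells, a small step without a call (adjusted p = 0.206). Zc3h12a, an endoribonuclease that degrades cytokine mRNAs, fell from 111, 76.3 and 119 to 12.1, 10.5 and 21.3 (log2 change -2.79 ± 0.32, adjusted p = 0.0126). The deadenylase adaptor gene Btg2 fell from 131, 137 and 142 to 12.95, 17.9 and 10.2 (log2 change -3.30 ± 0.21, adjusted p = 0.00254) and Tob1 from 329.7, 376 and 331 to 180.2, 147 and 142 (log2 change -1.15 ± 0.13, adjusted p = 0.0126). The 5 falls showed no overlap of the groups, and 4 of them kept their call with any 1 array left out. Btg1 at 1118, 1176 and 1129.9 in wild-type and 829, 917 and 954 in FoxO-deficient cells was not called although its groups did not overlap (adjusted p = 0.0838).

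Of 15 Krüppel-like factors tested, 5 fell and 0 rose (33.3% called, against 8.3% of all genes), and 4 or 5 were called with 1 array left out. Klf6 fell from 1378, 1535 and 1544 to 242, 231 and 256 (log2 change -2.61 ± 0.09, adjusted p = 0.000514). Klf10, induced by TGF-beta, fell from 1942, 2043 and 2093 to 1121, 1066 and 1008 (log2 change -0.93 ± 0.09, adjusted p = 0.00819), and Klf4, a factor of monocyte differentiation, from 86.95, 75.1 and 88.98 to 37.9, 40.4 and 40.7 (log2 change -1.06 ± 0.10, adjusted p = 0.00858). Klf11 fell from 205, 263 and 267 to 123, 107 and 96.00 (log2 change -1.16 ± 0.16, adjusted p = 0.0190). Klf1, the erythroid member, fell from 388, 381 and 367 to 206, 206 and 214 (log2 change -0.86 ± 0.08, adjusted p = 0.00768), on arrays that hardly differed within a group. Klf2 read 39.9, 23.1 and 43.6 in wild-type and 1.47, 10.2 and 5.13 in FoxO-deficient cells (adjusted p = 0.0602), lower on every deficient array, of which 1 was above the background limit.

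Promoter sequences were examined for the binding sites through which such genes are known to be induced. The CArG box binds serum response factor, TGACGTCA (the cAMP response element) binds CREB, TGACTCA or its complement TGAGTCA binds AP-1, and GTAAACA binds FoxO proteins. Each was searched on both strands of the 300 bases around the start site (250 before to 50 after) in the RefSeq promoters of GRCm38.p6, and no motif searched contains another. Of the 53 immediate-early, Krüppel-like, phosphatase and mRNA decay genes that fell, 43 had a promoter in the table. Of these, 6 held the cAMP response element (14%: Btg2, Dusp1, Dusp8, Errfi1, Plk2 and Ppp1r15a), against 3.51% of tested genes with a promoter. The CArG box was present in 3 (6.98%: Dusp5, Egr2 and Zfp36), against 1.66%. The AP-1 site was present in 1 (2.33%, Csrnp1), against 4.47%, and the FoxO site in 1 (2.33%, Junb), against 3.11%. Over all 27025 genes in the table the shares were 2.03%, 1.81%, 5.95% and 4.05% for the cAMP response element, CArG box, AP-1 site and FoxO site. These are counts of letters in a short window, not of occupied sites.

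The stretches that hold these motifs are shown for 6 of the genes that fell, 5′ to 3′ on the strand of the gene, with the motif in capitals. The first 3 carry CArG boxes, which in Dusp5 stand side by side as a pair, the next pair carry the cAMP response element, and Junb carries the FoxO site, here read on the opposite strand.
Dusp5 promoter, chr19:53529023-53529122, plus strand: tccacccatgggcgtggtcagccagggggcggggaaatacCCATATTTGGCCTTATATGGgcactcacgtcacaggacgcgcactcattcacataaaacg
Zfp36 promoter, chr7:28379237-28379326, minus strand: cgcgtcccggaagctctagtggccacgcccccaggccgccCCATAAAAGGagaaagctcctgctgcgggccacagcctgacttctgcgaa
Egr2 promoter, chr10:67537757-67537846, plus strand: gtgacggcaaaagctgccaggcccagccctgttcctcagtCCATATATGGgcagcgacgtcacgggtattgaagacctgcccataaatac
Dusp1 promoter, chr17:26508566-26508655, minus strand: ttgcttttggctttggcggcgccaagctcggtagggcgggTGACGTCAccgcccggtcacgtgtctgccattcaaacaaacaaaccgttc
Btg2 promoter, chr1:134079272-134079361, minus strand: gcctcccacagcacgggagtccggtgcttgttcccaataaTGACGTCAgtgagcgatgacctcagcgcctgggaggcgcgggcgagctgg
Junb promoter, chr8:84978834-84978923, minus strand: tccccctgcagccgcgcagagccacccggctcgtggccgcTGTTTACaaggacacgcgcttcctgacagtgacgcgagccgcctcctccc
These stretches were chosen as examples after the values were seen. The genes differ in their starting level and Junb ended near the background limit, so the sizes of their falls are not compared by motif.

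Genes that fell in the NF-kB pathway were among its inhibitors (5 of 9), its subunits (2 of 3) and its target cytokine and surface genes (5 of 9). Of 21 tested in all, 12 fell and 0 rose (57.1% called, against 8.3% of all genes), with a median log2 change of -0.91. Tnfaip3, the A20 enzyme that ends NF-kB signalling, fell from 517, 569 and 507 to 18.7, 18.3 and 28.7 (log2 change -4.59 ± 0.20, adjusted p = 0.000782). Nfkbia, the inhibitor that holds NF-kB in the cytoplasm and is itself a target, fell from 3749.5, 4024 and 4012 to 1043, 1101 and 963 (log2 change -1.92 ± 0.09, adjusted p = 0.00107). Nfkbiz fell from 326, 349.6 and 443 to 57.7, 34.4 and 39.96 (log2 change -3.09 ± 0.23, adjusted p = 0.00460) and Nfkbid from 52.2, 47.5 and 49.6 to 14.1, 11.9 and 12.5 (log2 change -1.91 ± 0.10, adjusted p = 0.00130). The deficient arrays were far below the wild-type arrays for all of these inhibitors. Of the subunits, Rel fell from 59.3, 59.9 and 67.6 to 15.5, 4.93 and 11.02 (log2 change -2.63 ± 0.40, adjusted p = 0.0242) and Rela from 164, 135 and 122 to 70.7, 80.6 and 78.03 (log2 change -0.86 ± 0.14, adjusted p = 0.0266). Irf1 fell from 346, 358 and 290.2 to 156, 161 and 153 (log2 change -1.07 ± 0.11, adjusted p = 0.0102) and the adhesion molecule gene Icam1 from 116, 134 and 102 to 57.5, 68.7 and 59.4 (log2 change -0.91 ± 0.14, adjusted p = 0.0245). Tnf and Cd83 fell from low levels, 30.1, 28.5 and 35.7 and 23.4, 33.2 and 40.9, to values near background. Without 1 array, 5 to 8 of the 12 were called, and 5 in every such fit.

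Of 9 chemokine genes tested, 5 fell and 0 rose (55.6% called, against 8.3% of all genes). Of the 5, 2 passed the filter on low values through the wild-type group only and so had to differ, Ccl3 and Cxcl10. Cxcl2, which attracts neutrophils, read 729, 738 and 775 in wild-type and 10.8, 3.80 and 3.12 in FoxO-deficient cells (adjusted p = 0.00247). Ccl3 and Ccl4, inflammatory CC chemokines, read 466, 517 and 462 and 86.5, 85.2 and 103 in wild-type cells and fell at least 54.3-fold and at least 10.3-fold. Cxcl10, an interferon-induced chemokine, fell at least 7.87-fold from 68.6, 86.4 and 55.96, and Cxcl1 from 53.8, 66.8 and 28.5 to 12.2, 6.17 and 9.54 (log2 change -2.31 ± 0.39, adjusted p = 0.0301). Each of these genes was near background on all deficient arrays. Ccl9, a macrophage chemokine, read 2372, 2079 and 2266 in wild-type and 2302, 2103 and 2088 in FoxO-deficient cells, with overlap of the groups (log2 change -0.05 ± 0.10). Between 1 and 4 of the 5 were called when 1 array was left out, with Cxcl2 in every fit.

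Of 23 heat shock genes tested, 6 fell and 0 rose (26.1% called, against 8.3% of all genes). Hspa1b, the inducible Hsp70, fell from 2428, 2508 and 2689.7 to 362, 352 and 374 (log2 change -2.81 ± 0.09, adjusted p = 0.000395). The Hsp40 cochaperone genes Dnajb1 and Dnajb4 fell, Dnajb1 from 2021, 2036 and 1952 to 1022, 949 and 954 (log2 change -1.04 ± 0.08, adjusted p = 0.00510). Dnajb4 fell from 333, 371 and 383 to 146, 137 and 112 (log2 change -1.46 ± 0.13, adjusted p = 0.00768). The constitutive Hspa8 read 3216, 3695 and 3769 in wild-type and 3147, 3492 and 3769 in FoxO-deficient cells, with overlap (adjusted p = 0.868). Hsp90aa1 read 2622, 2568 and 2877 in wild-type and 2585, 2453 and 2508 in FoxO-deficient cells, also with overlap (adjusted p = 0.552). Hspa1a and Hspa1b are near-identical copies, and probe sets can share signal between them, and Hspa1a fell with it to values near the background limit. Bag3 and Dnaja1 completed the falls, and 3 to 5 of the 6 were called with 1 array left out.

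Feedback genes of cytokine signalling moved in both directions, with 4 of 14 lower and 2 higher (42.9% called, against 8.3% of all genes). Socs3, which blocks signalling from the gp130 receptor, read 340.1, 278 and 297 in wild-type and 9.50, 7.95 and 8.07 in FoxO-deficient cells (adjusted p = 0.000298). Cish, a target of STAT5, fell from 105, 104 and 105 to 21.6, 24.98 and 20.1 (log2 change -2.21 ± 0.11, adjusted p = 0.00107). The kinase genes Pim3 and Pim1 fell, Pim3 from 2781, 2677 and 2666 to 1469.7, 1456 and 1454 (log2 change -0.89 ± 0.08, adjusted p = 0.00666). Pim1 fell from 1779, 1859.9 and 1529 to 909, 1109 and 1036 (log2 change -0.76 ± 0.13, adjusted p = 0.0288). Socs5 and Bcl6 rose, Socs5 from 29.96, 28.3 and 23.2 to 54.02, 59.2 and 49.7 (log2 change 0.99 ± 0.13, adjusted p = 0.0191), with its second probe set of the opposite sign. Bcl6, a transcriptional repressor, rose from 125, 149.7 and 138 to 215, 233 and 268 (log2 change 0.79 ± 0.13, adjusted p = 0.0260). Socs3, Cish and Pim3 kept their calls without any 1 array, and Pim1 did so in 1 of 6 fits, Socs5 in 2 and Bcl6 in 0.

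Textbook targets of FoxO, listed with earlier results of these data known, were split. Of 40 tested, 9 fell and 2 rose (27.5% called, against 8.3% of all genes), and the median log2 change was -0.18. Of the targets that fell, Trib1, Egr1 and Gadd45a also stand on the immediate-early lists and Klf6 and Klf4 among the Krüppel-like factors. Cdkn1a, the p21 inhibitor of cyclin-dependent kinases, fell from 118, 112 and 118 to 28.9, 33.5 and 32.7 (log2 change -1.86 ± 0.09, adjusted p = 0.00119). Pmaip1, which encodes the death inducer Noxa, fell from 368, 379.6 and 369.6 to 68.1, 78.1 and 74.5 (log2 change -2.33 ± 0.09, adjusted p = 0.000650). Ddit4, an inhibitor of mTOR, fell from 1968, 1419 and 1685 to 421, 390.4 and 409 (log2 change -2.04 ± 0.14, adjusted p = 0.00339). The autophagy gene Map1lc3b fell from 539, 568 and 564 to 398, 397 and 428 (log2 change -0.45 ± 0.08, adjusted p = 0.0358). The deficient arrays lay below the wild-type arrays throughout these genes. Of the 9 falls 7 or 8 stayed called without 1 array, and 7 in every such fit.

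Several textbook targets did not pass. Cdkn1b, the p27 inhibitor, read 635, 695 and 747 in wild-type and 509, 520.2 and 538 in FoxO-deficient cells (adjusted p = 0.0649), and Ccng2 read 310.3, 344 and 244 in wild-type and 145, 168 and 197 in FoxO-deficient cells (adjusted p = 0.0553), both lower on all deficient arrays. Bcl2l11, which encodes Bim, read 305, 283 and 307 in wild-type and 365, 337 and 333 in FoxO-deficient cells, higher on all deficient arrays (adjusted p = 0.209), but its other kept probe sets had the opposite sign. Insr, the insulin receptor, overlapped between groups at 122, 99.3 and 96.4 in wild-type and 124, 123 and 90.6 in FoxO-deficient cells. Cited2, a coregulator needed for stem cell maintenance, rose from 2169, 2152 and 2107 to 2852, 2767 and 3022 (log2 change 0.43 ± 0.08, adjusted p = 0.0398), but was not called in any fit with 1 array left out, and its second probe set had the opposite sign. Of 32 tested targets with a promoter in the table, 5 held the FoxO site (15.6%), and 0 of the 8 with a promoter that were called held it.

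Of the genes of ROS metabolism, which the study set out to examine, most were not called. Of 61 tested, 2 rose and 6 fell, and the median log2 change was 0.02. The rises are near the background of 5.04% of all genes and the falls above that of 3.26%. With 1 array left out 0 or 1 rose and 1 or 2 fell, and with median scaling 4 rose and 1 fell. The cytosolic and the mitochondrial superoxide dismutase genes overlapped between the groups. Sod1 read 5604, 6009 and 6039 in wild-type and 5858, 6039 and 5989.5 in FoxO-deficient cells (adjusted p = 0.898). Sod2, of the mitochondrial enzyme and a FoxO target, read 885, 939 and 1006 in wild-type and 1064, 1012 and 874 in FoxO-deficient cells (adjusted p = 0.786). Cat, which encodes catalase, read 876, 860.3 and 951 in wild-type and 910.3, 773 and 745 in FoxO-deficient cells (adjusted p = 0.461). For Sod1, Sod2 and Cat these are the brightest probe sets, and all other kept probe sets of these genes had the opposite sign. Of the 9 FoxO targets of oxidative stress defence, 0 were called by limma and 1 had an unadjusted p under 0.05.

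The ROS genes that fell were peroxiredoxins and glutathione enzymes. Prdx2 fell from 2204, 2164 and 2164 to 1648, 1631 and 1556 (log2 change -0.43 ± 0.08, adjusted p = 0.0337) and Prdx4 from 548, 554 and 569 to 428, 412 and 416 (log2 change -0.41 ± 0.08, adjusted p = 0.0369). Gsta4, a glutathione transferase for lipid peroxidation products, fell from 228, 202 and 213 to 114, 106 and 105 (log2 change -0.98 ± 0.09, adjusted p = 0.00780), on arrays with no overlap, and was the gene of this group that kept its call without any 1 array. Gstm5, Gstp1 and the mitochondrial glutaredoxin gene Glrx5 fell by smaller steps, with log2 changes of -0.51 ± 0.11, -0.40 ± 0.08 and -0.72 ± 0.12. The genes that rose were Nqo2 and Ncf4. Nqo2, a quinone reductase, rose from 81.2, 81.8 and 80.6 to 114, 105 and 105 (log2 change 0.41 ± 0.08, adjusted p = 0.0424). Of the subunits of the phagocyte NADPH oxidase, which makes superoxide, Ncf4 rose from 164, 144 and 138 to 271, 256 and 276 (log2 change 0.85 ± 0.10, adjusted p = 0.0146). The catalytic subunit gene Cybb read 68.8, 69.3 and 61.5 in wild-type and 71.5, 70.4 and 98.6 in FoxO-deficient cells, higher on the deficient arrays but mostly through array 12 (adjusted p = 0.389). Rac2 read 367, 315 and 359 in wild-type and 496, 521 and 450.2 in FoxO-deficient cells and Cyba 91.6, 74.1 and 73.98 in wild-type and 114, 107 and 106 in FoxO-deficient cells, both without overlap and without passing (adjusted p = 0.0536 and 0.0785). Gpx1, Gsr, Txn1 and Nfe2l2 were not called, with log2 changes of -0.06 ± 0.10, 0.17 ± 0.08, 0.08 ± 0.08 and 0.02 ± 0.11.

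The insulin and PI3K pathway that feeds into FoxO had 1 of 28 genes higher and 1 lower (7.1% called, near the 8.3% of all genes). Pik3r1, the regulatory subunit of PI3K, rose from 859.6, 814 and 995 to 1277, 1236 and 1429 (log2 change 0.57 ± 0.12, adjusted p = 0.0480), but was not called when any 1 array was left out. The gene that fell was Ddit4. Akt1 read 315, 317 and 332 in wild-type and 326, 298 and 274 in FoxO-deficient cells and Igf1r 1023, 991 and 966 in wild-type and 850.2, 979 and 882 in FoxO-deficient cells, both with overlap. Irs1 and Irs2 did not pass the filter on low values.

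Few genes of the cycling machinery were called, on short lists and against 8.3% of all genes. Of 32 genes of S phase limma called 0, with 4 at an unadjusted p under 0.05. Of 34 genes of G2 and M phase 1 fell (2.9% called), the centromere histone gene Cenpa (log2 change -0.51 ± 0.09, adjusted p = 0.0306). Mki67 read 1284, 1160.2 and 1168 in wild-type and 1259, 1155 and 1389 in FoxO-deficient cells and Pcna 2882, 2490.1 and 2751 in wild-type and 2858, 2846 and 2920.5 in FoxO-deficient cells, both with overlap. Of 15 G1 cyclins, kinases and E2F factors 1 fell (6.7% called, near the 8.3% of all genes). It was Ccne1, the cyclin that drives entry into S phase, from 318, 328 and 256 to 134, 140.4 and 157 (log2 change -1.06 ± 0.13, adjusted p = 0.0162). Ccnd1, Ccnd2 and Ccnd3 were not called. Of 16 cell cycle inhibitors 4 fell and 1 rose (31.2% called, against 8.3% of all genes). Those that fell, Btg2, Cdkn1a, Gadd45a and Tob1, have been given above. The pocket protein gene Rbl1 rose from 516, 509.9 and 534 to 804, 834 and 805 (log2 change 0.65 ± 0.08, adjusted p = 0.0146), with 1 of its 2 other probe sets of the opposite sign.

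Of 12 factors of the Myc network 2 rose and 2 fell (33.3% called, against 8.3% of all genes). Besides Myc, its relative Mycn rose from 67.1, 60.3 and 71.1 to 127, 139.6 and 156 (log2 change 1.08 ± 0.12, adjusted p = 0.0119). Mxd1, which competes with Myc for its partner Max, fell from 278, 249.8 and 361 to 160.2, 139.9 and 132 (log2 change -1.02 ± 0.17, adjusted p = 0.0281), and Mnt, another antagonist, fell from 303, 328 and 236 to 178, 174 and 156 (log2 change -0.76 ± 0.15, adjusted p = 0.0433). Max read 930.4, 891 and 921 in wild-type and 897, 946 and 916 in FoxO-deficient cells, with overlap. For Myc, Mycn, Mxd1 and Mnt the groups did not overlap. Of 13 listed Myc targets, 1 rose, the folate enzyme gene Shmt1 (log2 change 0.83 ± 0.14, adjusted p = 0.0315). Ribosome biogenesis genes, textbook targets of Myc, had 1 of 63 called, Noc3l, which rose on its brightest probe set and not on its second. Of 44 cytosolic ribosomal protein genes 1 rose, of 76 mitochondrial ones 1 fell, and of 53 respiratory chain genes limma called 0, with 4 at an unadjusted p under 0.05. Myc lost its call in some fits without 1 array, and Mycn kept it in all 6.

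Genes of protein folding in the endoplasmic reticulum were called higher more often than lower, and the few called genes of the integrated stress response mostly lower. The first group, under Xbp1 and Atf6, handles unfolded protein in the secretory pathway, and the second, under Atf4, answers amino acid shortage and other stresses. Of 21 genes of the unfolded protein response, 11 rose and 2 fell (61.9% called, against 8.3% of all genes), with a median log2 change of 0.46. Of 20 genes of the integrated stress response 1 rose and 5 fell (30.0% called), with a median of -0.17. Sdf2l1, of a chaperone complex of the endoplasmic reticulum, rose from 185, 138 and 172 to 349, 343 and 350.4 (log2 change 1.08 ± 0.13, adjusted p = 0.0149). Pdia4, a disulfide isomerase, rose from 20.9, 26.5 and 24.1 to 46.98, 54.2 and 65.01 (log2 change 1.19 ± 0.16, adjusted p = 0.0187), and Dnajc3, a cochaperone that inhibits eIF2 kinases, from 770.1, 728 and 748 to 1180.5, 1394 and 1349 (log2 change 0.80 ± 0.10, adjusted p = 0.0155). All deficient arrays were above all wild-type arrays. The sensor genes Ern1 and Atf6 rose, Ern1 from 419, 405 and 435 to 621, 585 and 635 (log2 change 0.55 ± 0.08, adjusted p = 0.0245), with 1 of its 3 other probe sets of the same sign. Atf6 rose from 179, 179 and 173 to 248, 253 and 276 (log2 change 0.54 ± 0.09, adjusted p = 0.0256). Xbp1 rose from 139, 129.5 and 141 to 209, 258 and 208 (log2 change 0.71 ± 0.12, adjusted p = 0.0288). Hyou1, Creld2, Manf, Edem1 and Pdia3 rose by log2 changes between 0.42 ± 0.08 and 0.77 ± 0.14. Hspa5, which encodes BiP, the main chaperone of the compartment, did not follow, at 2763, 2178 and 2073 in wild-type and 2492, 2226 and 2295 in FoxO-deficient cells with overlap (adjusted p = 0.973).

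On the falling side, Atf4 fell from 955, 997 and 1094 to 686, 648 and 641 (log2 change -0.62 ± 0.09, adjusted p = 0.0234). Some of its targets fell too, while 9 of the 20 integrated stress genes had a positive log2 change. Ddit3 (CHOP) fell from 96.2, 99.4 and 77.2 to 45.5, 34.8 and 35.5 (log2 change -1.22 ± 0.16, adjusted p = 0.0176). Asns, asparagine synthetase, fell from 1225, 1223 and 1107 to 737, 738 and 666 (log2 change -0.73 ± 0.09, adjusted p = 0.0168). Slc3a2, a chain of amino acid transporters, fell from 408, 436 and 448 to 226, 208 and 196 (log2 change -1.04 ± 0.10, adjusted p = 0.00780). Each deficient array was below each wild-type array for these genes. Ppp1r15a, which restarts translation, fell from 113, 89.9 and 114 to 11.7, 2.59 and 16.03 (log2 change -3.60 ± 0.64, adjusted p = 0.0329), and Vldlr was the member that rose. The folding genes Dnajb9 and Herpud1 fell against their group (log2 change -0.67 ± 0.09, adjusted p = 0.0188, and log2 change -0.50 ± 0.10, adjusted p = 0.0402). Few of these calls held with fewer arrays. With 1 array left out 0 to 2 of the 11 unfolded protein genes were called higher and 1 to 3 of the 5 integrated stress genes lower, of which Slc3a2 held in every fit. With median scaling 11 unfolded protein genes still rose, and 4 of the 7 falls over both groups were called.

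**Figure D4:**
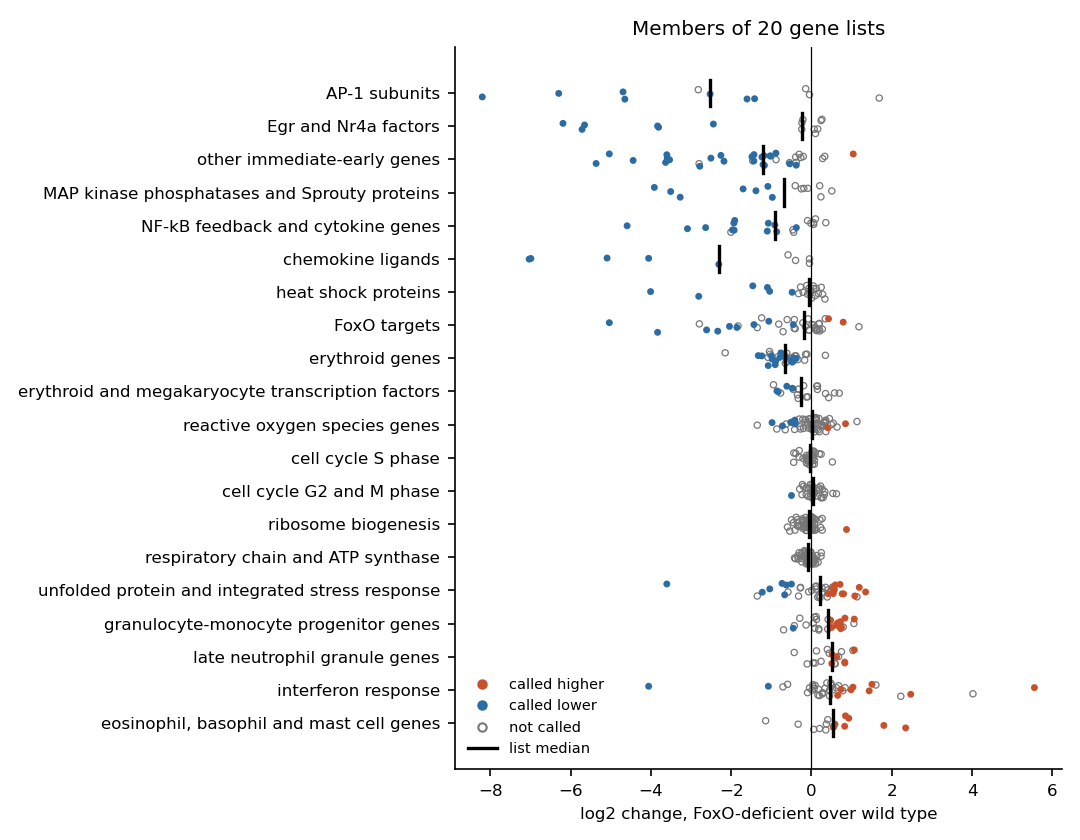
Log2 changes of the tested members of 20 gene lists, 1 point per gene, with called higher, called lower and not called members in different colours and a bar at each list's median. The early response, phosphatase, NF-kB and chemokine lists reach to log2 changes below -4 or near it, the erythroid list lies left of 0 by smaller steps, and the granulocyte, mast cell, interferon and unfolded protein lists have medians right of 0.

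Erythroid genes were lower more often than higher in FoxO-deficient myeloid progenitors. Of 34 tested, 15 fell and 0 rose, against 3.26% and 5.04% of all genes. The groups did not overlap for 26 that were lower and 0 that were higher, against 13.5% and 20.5% of all genes, and the median log2 change was -0.65. Tspan33, a membrane protein of early red cell precursors, fell from 908, 719 and 772 to 327, 347 and 282 (log2 change -1.32 ± 0.14, adjusted p = 0.00990). The receptor gene for erythropoietin, Epor, fell from 73.7, 53.7 and 60.1 to 35.4, 28.2 and 36.5 (log2 change -0.89 ± 0.17, adjusted p = 0.0385). The Rh-associated glycoprotein gene Rhag fell from 116, 144 and 108 to 71.4, 64.7 and 50.6 (log2 change -0.98 ± 0.18, adjusted p = 0.0362). No deficient array reached a wild-type array for any of them. Of the haem pathway, Alad, an early enzyme, fell from 717, 601 and 555 to 332, 331 and 334 (log2 change -0.90 ± 0.12, adjusted p = 0.0178), and Cpox and Fech, late enzymes, by log2 changes of -0.48 ± 0.09 and -0.44 ± 0.08. Blvrb, biliverdin reductase B, fell from 362, 243 and 266 to 126, 136 and 104 (log2 change -1.24 ± 0.19, adjusted p = 0.0255). The water channel gene Aqp1 fell from 612, 568 and 604 to 375, 369 and 398 (log2 change -0.64 ± 0.08, adjusted p = 0.0174). The carbonic anhydrase gene Car1 had the smallest fall of the 15 (log2 change -0.38 ± 0.08, adjusted p = 0.0472), and the transferrin receptor gene Tfrc read 2649, 2942 and 2950.3 in wild-type and 2508, 2482 and 2598 in FoxO-deficient cells without a call (adjusted p = 0.293).

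Among 20 transcription factors of red cells and megakaryocytes, 4 fell and 0 rose. Gata1, the master regulator of red cell genes, fell from 742, 763 and 806 to 481, 425 and 399.9 (log2 change -0.83 ± 0.10, adjusted p = 0.0160). Klf1, given above, fell with almost no spread. Tal1 fell from 641, 544 and 524 to 389, 388 and 337 (log2 change -0.61 ± 0.12, adjusted p = 0.0422) and Gfi1b from 205, 188 and 192 to 136, 148 and 137 (log2 change -0.47 ± 0.09, adjusted p = 0.0360). Gata2 read 1489, 1417 and 1335 in wild-type and 1072, 1174 and 1125 in FoxO-deficient cells, lower on all deficient arrays (adjusted p = 0.0865), and Nfe2 had the opposite sign. The haemoglobin gene Hba-a1 and Alas2, markers of late red cells, did not pass the filter on low values in these cells, and the summed level of 3 late red cell markers lay between 14.29 and 18.1 on wild-type and between 5.247 and 16.75 on deficient arrays. With 1 array left out, 2 or 3 of the 15 erythroid genes were called, Tspan33 in every fit, and 1 to 3 of the 4 factors, Klf1 in every fit. With median scaling 6 of the erythroid genes were called lower and 0 higher, and 2 of the factors lower and 2 higher. The megakaryocyte markers moved the same way in sum, from between 388.9 and 438.9 to between 252.1 and 312.3, mostly through Pf4, which was not called (log2 change -0.58 ± 0.13, adjusted p = 0.0580). Of 24 megakaryocyte and platelet genes 3 fell and 0 rose (12.5% called, against 8.3% of all genes). The part of the makeup of the sorted cells in these differences was not tested.

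The lists of the granulocyte-monocyte branch differed, with more rises than falls among progenitor and late neutrophil genes but not among monocyte genes or the branch's transcription factors. Of 26 granulocyte-monocyte progenitor genes 9 rose and 1 fell (38.5% called, against 8.3% of all genes), with a median log2 change of 0.41. Hp, haptoglobin, rose from 222, 204 and 234 to 485, 463 and 435 (log2 change 1.07 ± 0.10, adjusted p = 0.00760). Csf2rb, the shared chain of the receptors for IL-3, IL-5 and GM-CSF, rose from 259.6, 275 and 271 to 467, 463 and 509 (log2 change 0.83 ± 0.09, adjusted p = 0.00995). Both held without any 1 array, with array 12 the highest deficient array for Csf2rb and the lowest for Hp. Cst7 rose from 1028, 1093 and 1183 to 1744, 1758 and 1652 (log2 change 0.64 ± 0.09, adjusted p = 0.0221), Ms4a3, a marker of these progenitors, from 2874, 3033 and 3329 to 4240.4, 4174 and 4698 (log2 change 0.51 ± 0.10, adjusted p = 0.0442). The protease inhibitor gene Slpi rose from 399, 333 and 352 to 643, 564 and 577 (log2 change 0.72 ± 0.11, adjusted p = 0.0245). The main granule genes did not pass. Mpo, myeloperoxidase, read 4275, 4356 and 4483 in wild-type and 4794, 4656 and 4874 in FoxO-deficient cells (adjusted p = 0.366), and Elane, neutrophil elastase, 2148, 1596 and 1655 in wild-type and 2523, 2328 and 2249.7 in FoxO-deficient cells (adjusted p = 0.150). In both all deficient arrays were higher. The gene of this list that fell was Ermap, which also stands on the erythroid list and is known as a red cell protein. Between 2 and 4 of the 9 were called without 1 array.

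Of 19 late neutrophil genes 6 rose and 0 fell (31.6% called, against 8.3% of all genes). Lcn2, lipocalin 2, rose from 80.1, 74.3 and 89.5 to 140.5, 143 and 149.8 (log2 change 0.83 ± 0.10, adjusted p = 0.0154). Camp, cathelicidin, rose from 107, 91.3 and 90.4 to 209, 156 and 154 (log2 change 0.83 ± 0.16, adjusted p = 0.0387). S100a8 rose from 2375, 2322 and 2419.5 to 3511, 3249 and 3363 (log2 change 0.51 ± 0.08, adjusted p = 0.0260) and S100a9 from 1865, 1859 and 1751 to 2541, 2589 and 2708 (log2 change 0.52 ± 0.08, adjusted p = 0.0259). The deficient arrays were all above the wild-type arrays. Chil3 rose as well (log2 change 0.63 ± 0.12, adjusted p = 0.0425), Ltf and Ngp overlapped, and Mmp8, Mmp9 and Cxcr2, genes of the last stages, stayed near background in both groups. The summed level of 6 late neutrophil markers was 480.9 to 570 on wild-type and 708 to 776.8 on deficient arrays, and the part of mature neutrophils in the rise was not tested. Hp alone was called in all 6 fits with 1 array left out.

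The factors of this branch gave a mixed picture, with 2 of 17 higher and 4 lower (35.3% called, against 8.3% of all genes). Gfi1, the repressor that favours granulocytes, rose from 254, 275 and 258 to 496, 462 and 464 (log2 change 0.85 ± 0.08, adjusted p = 0.00910), its deficient arrays all lying well above the wild-type ones, and kept its call in every fit. Bcl6 was the other that rose. Cebpa, the factor needed to form these progenitors, read 1027, 829 and 854 in wild-type and 1297, 1302 and 1177 in FoxO-deficient cells, higher on all deficient arrays but short of a call (adjusted p = 0.0685). Irf8 and Spi1 were not called (log2 change 0.18 ± 0.10, adjusted p = 0.308, and log2 change -0.11 ± 0.25, adjusted p = 0.820). The factors that fell, Egr1, Egr2, Klf4 and Gfi1b, have been given above.

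Of 20 monocyte and macrophage genes tested, 2 fell and 0 rose (10.0% called, near the 8.3% of all genes). Their median log2 change was nevertheless 0.44. Cd14, the coreceptor for lipopolysaccharide, fell from 116, 79.9 and 115 to 10.3, 12.3 and 11.8 (log2 change -3.09 ± 0.18, adjusted p = 0.00198). The chemokine receptor gene Ccr2 fell from 327, 343 and 340.1 to 237, 212 and 212 (log2 change -0.61 ± 0.09, adjusted p = 0.0222), with 1 of its 3 other probe sets of the opposite sign. Csf1r, the receptor for M-CSF, read 316, 215 and 208 in wild-type and 128, 188 and 138 in FoxO-deficient cells without passing (adjusted p = 0.133), and Ly86 overlapped. The summed level of 6 monocyte markers was 696 to 716.7 on wild-type and 506.4 to 518.3 on deficient arrays, a difference made by Ccr2 and Cd14. Cd14 was called with any 1 array left out and Ccr2 in 0 of 6 such fits.

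Of 15 genes of eosinophils, basophils and mast cells, 7 rose and 0 fell (46.7% called, against 8.3% of all genes). Cma1, 1 of the 7, passed the filter through the deficient group only and so had to differ. Fcer1a, the IgE-binding chain of the high-affinity IgE receptor, rose from 25.4, 22.5 and 23.7 to 74.9, 85.5 and 94.6 (log2 change 1.80 ± 0.12, adjusted p = 0.00292), and was called without any 1 array. Ms4a2, another chain of that receptor, rose from 55.5, 64.1 and 61.7 to 119.6, 114 and 94.9 (log2 change 0.85 ± 0.13, adjusted p = 0.0234), with its second probe set of the opposite sign. Mcpt8, a basophil protease, rose from 162, 153 and 140.3 to 285, 242 and 283 (log2 change 0.83 ± 0.11, adjusted p = 0.0189). The eosinophil granule protein gene Prg2 rose from 46.4, 53.9 and 56.4 to 72.6, 82.1 and 81.3 (log2 change 0.59 ± 0.11, adjusted p = 0.0408) and Siglecf from 89.1, 77.9 and 86.4 to 126, 127 and 118 (log2 change 0.55 ± 0.09, adjusted p = 0.0299). For each of these the deficient arrays did not overlap the wild-type arrays. Lmo4 rose too (log2 change 0.93 ± 0.16, adjusted p = 0.0306). Hdc and Cpa3 read higher on all deficient arrays without a call (adjusted p = 0.158 and 0.138), and Epx overlapped. Of the 7 rises 1 to 3 were called without 1 array.

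**Figure D5:**
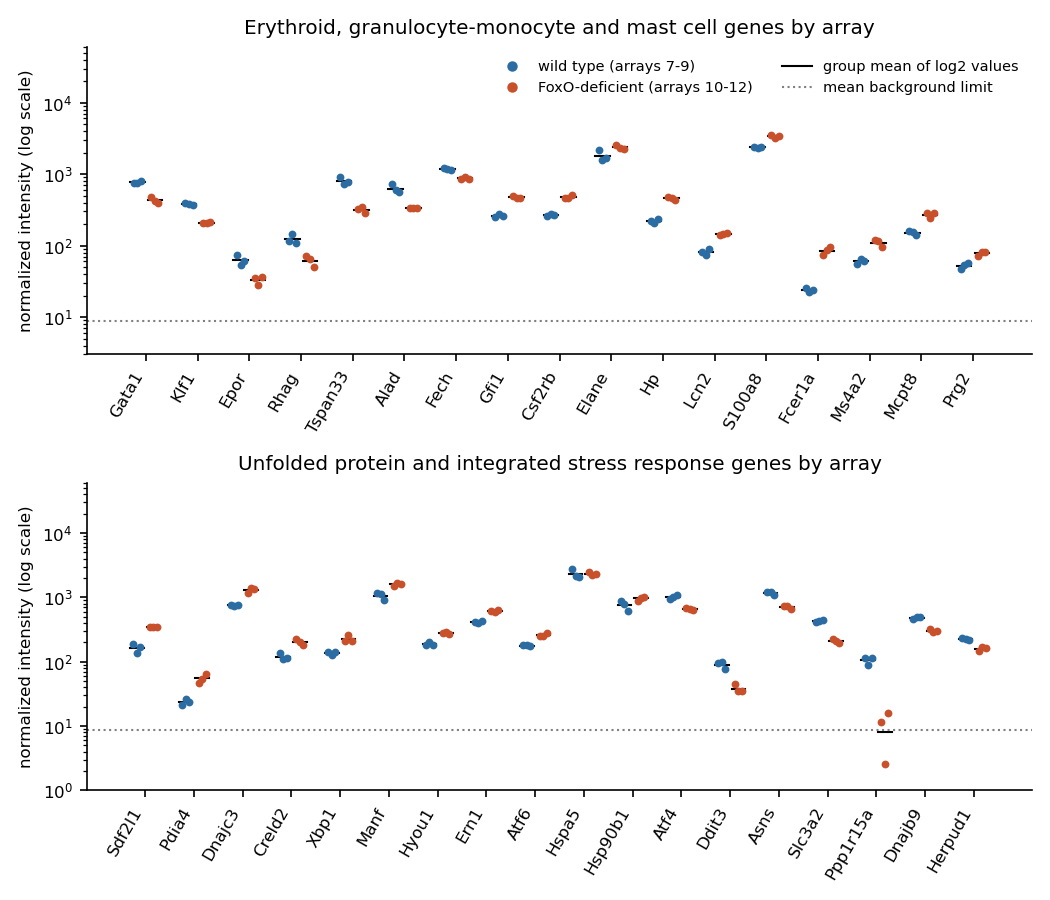
Normalized intensity (log axis) by array for genes of the erythroid, granulocyte-monocyte and mast cell lineages (first panel) and of the unfolded protein and integrated stress responses (second panel), with wild-type arrays 7 to 9 and FoxO-deficient arrays 10 to 12 in different colours. Erythroid genes lie lower on the deficient arrays, as do Atf4, Ddit3, Asns, Slc3a2 and Ppp1r15a, and the granulocyte and mast cell genes lie higher. Most folding genes lie higher too, but Hspa5 overlaps between the groups, and Dnajb9 and Herpud1 lie lower.

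Of 38 interferon response genes, 8 rose and 2 fell (26.3% called, against 8.3% of all genes), with a median log2 change of 0.45. Trim30d, 1 of the 8, passed the filter through the deficient group only, and Cxcl10, 1 of the 2, through the wild-type group only. Both therefore had to differ. The GTPase genes Igtp and Ifi47 rose, Igtp from 51.7, 49.3 and 49.3 to 155, 121 and 136 (log2 change 1.44 ± 0.12, adjusted p = 0.00551). Ifi47 rose from 206, 180.2 and 161 to 388, 351 and 343 (log2 change 0.99 ± 0.12, adjusted p = 0.0161). Trim30a rose from 869, 921 and 871 to 1447, 1457 and 1527 (log2 change 0.74 ± 0.08, adjusted p = 0.0119) and Parp14 from 75.5, 69.1 and 59.8 to 106, 115 and 101 (log2 change 0.65 ± 0.12, adjusted p = 0.0367). All deficient arrays exceeded all wild-type arrays. The genes that fell were Irf1 and Cxcl10, which are also on the NF-kB and chemokine lists. Mx1 read 8.13, 6.78 and 1.04 in wild-type and 15.5, 11.6 and 14.6 in FoxO-deficient cells, without a call (adjusted p = 0.203), and Ifit1 and Usp18 overlapped. Psmb9, the interferon-induced subunit of the immunoproteasome, was the gene of 40 proteasome genes that rose, from 201, 191 and 183 to 335, 341 and 319 (log2 change 0.79 ± 0.08, adjusted p = 0.0114). Irgm2, Igtp and Trim30a were called in all 6 fits with 1 array left out. The deficient group alone carried a Cre transgene under an interferon-responsive promoter, and the part of that transgene or of its induction cannot be told apart from that of FoxO loss.

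Of 26 cytokine and growth factor receptor genes 5 rose, Il6st, Csf2rb, Il10rb, Ifngr1 and Tnfrsf1a, and Epor fell (23.1% called, against 8.3% of all genes). Il6st, which encodes the gp130 chain shared by receptors of the IL-6 family, rose from 59.8, 56.9 and 58.6 to 212, 209 and 202 (log2 change 1.82 ± 0.08, adjusted p = 0.000782), with arrays nearly equal within each group, although 1 of its 2 other kept probe sets had the opposite sign. Ifngr1, of the interferon-gamma receptor, rose from 96.2, 111 and 109 to 152, 157 and 172 (log2 change 0.60 ± 0.10, adjusted p = 0.0306). Tnfrsf1a, a receptor for TNF, rose from 65.6, 63.5 and 75.9 to 98.98, 100.1 and 109 (log2 change 0.59 ± 0.11, adjusted p = 0.0352). Il6st and Csf2rb held without any 1 array. Kit read 363, 397 and 373 in wild-type and 409, 449 and 447 in FoxO-deficient cells, higher on all deficient arrays without passing. The sphingosine receptor gene S1pr3 rose from 85.8, 63.2 and 84.01 to 159, 154 and 161 (log2 change 1.03 ± 0.14, adjusted p = 0.0199), and Cxcr4 was not called (log2 change 0.27 ± 0.09, adjusted p = 0.139).

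Stem cell genes were mixed, with 2 of 42 higher and 4 lower (14.3% called, against 8.3% of all genes). Tek, the angiopoietin receptor Tie2, fell from 110.4, 83.2 and 85.6 to 41.6, 39.8 and 40.8 (log2 change -1.17 ± 0.13, adjusted p = 0.0129). The aldehyde dehydrogenase gene Aldh1a1 fell from 522, 575 and 583 to 379, 375 and 424 (log2 change -0.51 ± 0.10, adjusted p = 0.0402), and Egr1 and Tal1 are also on this list. Cd48, a marker of cells past the stem cell stage, rose from 365, 333 and 381 to 607, 627 and 655 (log2 change 0.81 ± 0.09, adjusted p = 0.0132), and Mycn rose. The summed level of 5 LSK and stem cell markers overlapped, at 337.7 to 378.5 on wild-type and 301.4 to 383.1 on deficient arrays.

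Of 13 B cell and plasma cell genes 3 rose (Cd79b, Igkv8-30 and Xbp1) and 2 fell (Sdc1 and Ebf1). The share called was 38.5%, against 8.3% of all genes. Igkv8-30 and Ebf1 passed the filter through 1 group only and so had to differ. With 1 array left out, 0 to 2 of the rises and 0 or 1 of the falls were called. Cd79b, a signalling chain of the B cell receptor, rose from 71.9, 59.2 and 62.00 to 115, 115 and 149 (log2 change 0.96 ± 0.15, adjusted p = 0.0246). Sdc1, syndecan 1, fell from 194, 107 and 175 to 46.1, 48.7 and 43.1 (log2 change -1.73 ± 0.24, adjusted p = 0.0205). The immunoglobulin joining chain gene Jchain read 5.77, 0.116 and 6.96 in wild-type and 43.4, 38.9 and 39.3 in FoxO-deficient cells, higher on every deficient array without passing (adjusted p = 0.0757). Cd79a overlapped near background, and the summed level of 5 B and plasma cell markers was 167.2 to 285.4 on wild-type and 211.5 to 244.5 on deficient arrays, so the groups overlapped, and their part in the rise of Igkv8-30 was not tested.

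Death and damage genes were called at a higher share than the 8.3% of all genes, on short lists. The members that fell also stand on lists given above, so these shares are not separate results. Of 13 Bcl2 family genes Pmaip1 and Mcl1 fell and 0 rose (15.4% called), and Mcl1 was not called in any fit with 1 array left out. Bcl2 read 170.1, 179.6 and 193 in wild-type and 292, 233 and 218 in FoxO-deficient cells (adjusted p = 0.119). Of 23 p53 targets 5 fell, Btg2, Pmaip1, Plk2, Cdkn1a and Gadd45a, and 2 rose (30.4% called). Plk2 passed the filter on low values through the wild-type group only and so had to differ. Tigar, which lowers glycolytic flux, rose from 127, 143 and 200.3 to 332, 400.2 and 389.9 (log2 change 1.27 ± 0.20, adjusted p = 0.0246). Rrm2b, a subunit of ribonucleotide reductase, rose from 297, 276 and 251 to 400.1, 389 and 449 (log2 change 0.59 ± 0.11, adjusted p = 0.0382). Mdm2 read 754, 818 and 829 in wild-type and 664, 609 and 607 in FoxO-deficient cells, lower on all deficient arrays without a call (adjusted p = 0.0752). Of the falls, 4 held with any 1 array left out, Tigar was called in 1 of 6 such fits and Rrm2b in 0.

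Of 24 glycolysis and pentose phosphate genes 3 rose, Hk2, Pfkfb3 and Pfkp, and the muscle phosphofructokinase gene Pfkm fell (16.7% called). Hk2, hexokinase 2, rose from 449, 454 and 403 to 616, 599.9 and 723 (log2 change 0.57 ± 0.11, adjusted p = 0.0439). Pfkfb3 rose from 126, 153 and 143 to 244, 198 and 216 (log2 change 0.64 ± 0.13, adjusted p = 0.0424). The second probe sets of Pfkfb3 and Pfkp had the opposite sign, and none of these 4 calls held in any fit with 1 array left out. Ldha and Pgk1 overlapped. Of 19 hypoxia genes 3 fell (15.8% called, against 8.3% of all genes) and were called in every fit with 1 array left out, among them Vegfa, from 139, 127 and 107 to 48.3, 47.7 and 44.4 (log2 change -1.39 ± 0.12, adjusted p = 0.00741), with no overlap but with its second probe set of the opposite sign, while Hif1a itself was not called (log2 change 0.35 ± 0.09, adjusted p = 0.0786). Of 18 cholesterol genes 2 rose and 3 fell (27.8% called), 0 of which were called in any fit with 1 array left out, and with median scaling 0 fell. Of 38 autophagy and lysosome genes 2 rose and 3 fell (13.2% called). Sqstm1, the autophagy receptor p62, fell from 189, 218 and 220.2 to 91.7, 72.7 and 87.95 (log2 change -1.31 ± 0.13, adjusted p = 0.00910). Rb1cc1, which starts autophagosome formation, rose from 187, 175 and 187 to 313, 332 and 338 (log2 change 0.84 ± 0.08, adjusted p = 0.00933), although its other 2 probe sets had the opposite sign, and the cathepsin gene Ctsh rose from 20.6, 22.6 and 19.8 to 43.5, 43.1 and 56.7 (log2 change 1.15 ± 0.14, adjusted p = 0.0149). Sqstm1 and Rb1cc1 were called in every fit with 1 array left out.

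Among 34 chromatin regulators 2 rose and 2 fell (11.8% called, against 8.3% of all genes). Tet2, which oxidises methylcytosine, rose from 367, 381 and 365 to 517, 519 and 557 (log2 change 0.52 ± 0.08, adjusted p = 0.0257). Tet3 fell at least 1.79-fold from low levels of 14.4, 22.5 and 10.9. It passed the filter on low values through the wild-type group only and so had to differ. Kdm6b, given above, was the other that fell. The Polycomb gene Pcgf5 rose from 285, 259 and 270.5 to 487, 494 and 499 (log2 change 0.86 ± 0.08, adjusted p = 0.00840). The deficient arrays were close together for both rises, but Tet2 was not called in any fit with 1 array left out, while Pcgf5 was called in every one. Dnmt1, Dnmt3a, Ezh2 and Bmi1 were not called, with log2 changes of 0.15 ± 0.09, 0.01 ± 0.12, 0.00 ± 0.10 and -0.10 ± 0.12.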

How the data were processed

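Total RNA from pooled, sorted mouse cells was amplified to biotin-labelled cDNA (NuGEN Ovation) and hybridised to Affymetrix whole-genome mouse arrays, per the labels' protocols. The authors deposited linear intensity values per probe set, and the summarisation software was not given in the sources used here. Distributions differed between arrays, so they were quantile normalized over the 6 myeloid progenitor arrays after adding 0.6 (the 10th percentile of the values) and taking log2. Probe sets above the 40th percentile on at least 3 arrays were kept. Of 45101 probe sets, 34945 paired with 1 gene symbol in GEO's platform annotation, 932 with several and 9160 with none, besides 64 controls, and 34741 symbols were updated through the gene list of RefSeq. The brightest kept probe set stood for a gene. The background limit of each array came from 27 bacterial control probe sets. The groups were compared with limma 3.58.1 (lmFit and eBayes, in R 4.3.3) on 3 against 3 arrays with 4 residual degrees of freedom, with Benjamini-Hochberg adjustment at 0.05, and the number of arrays limits the precision. The fit was tested on simulated data. The comparison with LSK cells used 11 arrays, without wild-type LSK array 2, whose RNA was degraded by its control probe sets. The members and lists were chosen with earlier results of these data known, and no set test was run. Genes named are the 12 called genes with the largest rise and the 12 with the largest fall, key members and up to 8 called members with the largest change in each list, and the targeted genes. A few further list members were named after their values were seen, to say what a list held. Alternatives covered the offset, filter, normalization, probe set choice, variance model, weights, arrays fitted and each array left out. Promoters were RefSeq's on GRCm38.p6.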

Additional observations from a re-analysis of the deposited data

Results flagged for a closer look

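For 29 of the named genes the FoxO effect in myeloid progenitors differed from that in LSK cells by a test of the difference itself (limma on 11 arrays, adjusted p from 2.76e-05 to 0.0474). The values that follow are differences of log2 changes, myeloid progenitors minus LSK cells. Of the 24 genes with the largest changes in myeloid progenitors, 19 are among them, against 3.51% of 13445 genes. These 24 were picked by their change on the same myeloid progenitor arrays. That choice makes a difference more likely, so the count is a description and not a test. Where a level is not above background, the difference is the fitted value, which depends on the offset added before the log, and is no measured size.

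Among the falls, the difference was -8.09 for Fosb, -7.84 for Cxcl2, -6.89 for Ccl3, -6.66 for Atf3 and -6.55 for Nr4a3. It was -6.55 for Ptgs2, -5.88 for Nr4a1, -5.65 for Egr3 and -5.45 for Ccl4. It was -4.87 for Trib1, -4.83 for Jun and -4.77 for Socs3. Among these, Fosb, Ccl3, Atf3, Nr4a3, Ptgs2, Nr4a1, Egr3 and Ccl4 were not above background on any deficient myeloid progenitor array, and Cxcl2, Trib1 and Socs3 were above it on 1 of 3. These genes were measured at clear levels in LSK cells of both genotypes. Nr4a1 had mean levels of 759 in wild-type and 872 in FoxO-deficient LSK cells, against 76.9 and 0.909 in myeloid progenitors. For Fosb the means were 1805 and 1827 in LSK cells, while the myeloid progenitors had 683 and 1.94.

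Among the rises, the difference was 4.46 for Trim30d, 3.50 for Zfp563, 3.45 for Igkv8-30, 3.13 for Tpd52l1, 2.65 for Irgm2 and 1.92 for Cma1. Trim30d, Igkv8-30, Tpd52l1 and Cma1 were not above background on any wild-type myeloid progenitor array. The Mir1931 probe set rose in both cell types, and less in myeloid progenitors (difference -1.33, log2 changes of 2.68 and 4.01). Igkv8-30 had mean levels of 751 and 1141 in LSK cells, where the light chain segment was present in both genotypes, and 2.30 and 47.4 in myeloid progenitors.

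In the other 10 genes the change in LSK cells had the opposite sign, by at least 0.5 on the log2 scale. They were picked for that opposite sign on the same arrays, which likewise makes a difference more likely. Gfi1 fell in mean level from 152 to 73.8 in LSK cells and rose from 257 to 459 in myeloid progenitors (difference 1.87). In LSK cells Mycn had means of 659 and 352, while myeloid progenitors had 68.2 and 140.3 (difference 1.94), and Myc differed by 1.53. Pmaip1, which encodes Noxa, had LSK means of 96.7 and 210.1, while those of myeloid progenitors were 360.3 and 75.5 (difference -3.36). The other differences were -4.03 for Bhlhe40, -3.50 for Cd14, -3.39 for Cd83, -2.60 for Tnf, -2.15 for Junb and -1.65 for Mxd1. Cd83 and Tnf were above background on 1 of 3 deficient myeloid progenitor arrays and Junb on 2. The change within LSK cells alone was not tested for these genes here.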

How the results depend on the processing

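The count of genes called, 983, moved under several alternatives. With an offset of 16 it was 1614 (1006 higher, 608 lower), with 32 it was 2007 (1255 and 752), without a filter 231 (103 and 128), with a filter at the 60th percentile 1751 (1097 and 654) and with an intensity trend 2249 (1403 and 846). In a fit over all 12 arrays it was 253 (104 and 149), and over the 11 arrays without wild-type LSK array 2 it was 1194 (720 and 474). With the mean of all kept probe sets 600 genes were called, 315 of them higher, and with median scaling 254 were called lower. Without 1 of the 6 arrays the calls ranged from 250 to 442, those higher from 97 to 269 and those lower from 126 to 173. Without a deficient array 38.3% to 39.6% of calls were higher, and without a wild-type array 60.9% to 61.7%. Of the immediate-early genes, 36 were called lower, and between 29 and 39 under the alternatives other than 23 without a filter and 19 to 28 without 1 array. The test of the difference from LSK cells called 472 genes with 11 arrays and 118 with all 12. Pfkp, which rose, had a log2 change of -0.32 as the mean of its probe sets (adjusted p = 0.733), where its second probe set enters by construction. Of 129 named genes followed, 49 kept direction and call in each of the 17 alternatives that tested them, and Pfkp was the 1 that reversed. The cause of the other moves was not tested. No paired analysis was possible because the groups share no replicate numbers. Levels near the background limit are bounds only.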

Other observations

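Genes named Zfp followed by a number, mostly zinc finger factors of the KRAB type, were higher more often than lower. This family was picked out after its values were seen. Of 265 tested, 34 rose (12.8%) and 3 fell (1.13%: Zfp36, Zfp821 and Zfp622), with a median log2 change of 0.35, against 5.04% and 3.26% of all genes and a median of 0.05. With median scaling 43 rose and with cyclic loess 37. Their median level was 36.2, against 88.9 for all genes, and the part of low level in the rise was not tested. Zfp950, Zfp760, Zfp449 and Zfp217 were among those that rose, by log2 changes of 1.77 ± 0.14, 1.55 ± 0.13, 1.80 ± 0.20 and 0.85 ± 0.08. Of 42 genes named Trim followed by a number, which encode ubiquitin ligases with a RING finger, 6 rose (14.3%) and 1 fell (2.38%), with a median log2 change of 0.25.

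Runs of 3 neighbouring tested genes called in the same direction were found on 4 chromosomes. Of all genes 5.04% were called higher and 3.26% lower, and how many such runs these shares alone would give was not tested. Stxbp5, Rab32 and Shprh on chromosome 10 rose, as did Slc25a40, Rundc3b and the drug transporter gene Abcb1b on chromosome 5. The retinaldehyde dehydrogenase genes Aldh1a1 and Aldh1a7 fell with their neighbour Zfand5 on chromosome 19, and Ube2j2, C1qtnf12 and B3galt6 fell on chromosome 4. Aldh1a1 and Aldh1a7 are close paralogs, so their probe sets may share signal, and Aldh1a1 was not called in any fit with 1 array left out.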
